A study of Mus musculus with 16 samples.

Results

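The 10 genes described here are the endothelial identity, VEGF and angiopoietin genes of mouse visceral fat: the ligands Vegfa, Vegfb, Angpt1 and Angpt2, the receptors Kdr, Flt1, Tek and Robo4, and the junction genes Pecam1 and Cdh5. They were taken by symbol from a table of 45777 genes. All 10 passed the filter on low counts, which left 19189 genes for testing. RNA was sequenced from epididymal white fat, a visceral depot of the abdomen, in 16 male mice. OE mice (A-LTA4HOE) overexpressed leukotriene A4 hydrolase, the enzyme that makes leukotriene B4, in adipocytes, and Ctrl mice were their controls. Which promoter drives the transgene is not given in the labels. The 4 groups of 4 mice were OE at 20 weeks of age, Ctrl at 20 weeks, OE at 8 weeks and Ctrl at 8 weeks. All mice were fed high-fat chow that began when they were 4 weeks old, for 16 weeks in the 20-week groups and for 4 weeks in the 8-week groups, and no group on another diet was analysed here. The labels give no batch, and age, time on the diet and any batch in handling cannot be told apart between 20 and 8 weeks.

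Endothelial cells line blood vessels and are recognised by the adhesion proteins of their junctions. VEGF-A, which adipocytes release, binds the signalling receptor KDR (VEGFR2) and the receptor FLT1 (VEGFR1), which holds VEGF-A tightly and limits its signal. VEGF-B binds FLT1 and not KDR. Angiopoietin 1, made mainly by cells around the vessel, activates TEK (TIE2) and keeps vessels quiet, whereas angiopoietin 2, which endothelial cells store and release, acts on the same receptor in a context-dependent way. ROBO4 is an endothelial receptor that stabilises vessels and binds UNC5B.

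Library totals ranged from 33626901 to 67576994 counts. Lta4h, the overexpressed gene, averaged 268 ± 20.8 CPM in OE and 88.5 ± 5.37 CPM in Ctrl at 20 weeks, and 353 ± 77.9 CPM in OE and 89.7 ± 10.5 CPM in Ctrl at 8 weeks (SD, n = 4 each). CPM are counts divided by library size after TMM scaling, on the usual per-megacount scale. Some libraries stood apart, and values without them are given beside several results. OE 20-week replicate 1 had a summed macrophage marker level of 4470 CPM over 12 genes, against 6750 to 11100 CPM in the other 20-week libraries. It also had the highest 20-week sum of adipocyte markers, at 18300 CPM against 6970 to 13500 CPM. Its sum of red cell genes was the highest at that age too, at 3040 CPM against 688 to 1320 CPM. The libraries numbered 1 in the 8-week groups had 119 CPM (OE) and 144 CPM (Ctrl) over 7 lymphatic endothelial markers, against 277 to 348 CPM in the other 8-week libraries. OE 8-week replicate 2 and Ctrl 8-week replicate 4 held transcripts of epididymal epithelium, with 2430 and 3690 CPM over 10 markers, against at most 163 CPM elsewhere.

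All 10 genes were detected in all 16 libraries. On the authors' TPM scale, which accounts for gene length, the order of mean levels was nearly the same in each group. Pecam1, an adhesion protein of endothelial junctions, was highest, at 142 ± 33.1 TPM in OE and 122 ± 15.7 TPM in Ctrl at 20 weeks, and at 185 ± 6.02 TPM in OE and 164 ± 12.7 TPM in Ctrl at 8 weeks (SD, n = 4 each). Cdh5, which encodes VE-cadherin, followed, and its spread (mean ± SD) overlapped that of Pecam1 in each group. Vegfb and Vegfa came next, and only in OE at 20 weeks was the mean of Vegfa, at 79 ± 18.5 TPM, above that of Vegfb, at 72.6 ± 19.7 TPM (n = 4). Their spreads overlapped in each group. Kdr lay below the VEGF ligands, at 35.6 ± 17.8 TPM in OE and 30.4 ± 8.26 TPM in Ctrl at 20 weeks, and at 58.1 ± 7.82 TPM in OE and 68 ± 3.37 TPM in Ctrl at 8 weeks (n = 4 each). Robo4, Flt1 and Tek were close to each other, with group means between 21.5 and 40.7 TPM. The angiopoietins were the lowest of the 10, with means between 10.3 and 14 TPM for Angpt2 and between 4.03 and 9.68 TPM for Angpt1. Levels in CPM are not per length and are compared below only within a gene.

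**Figure D1:**
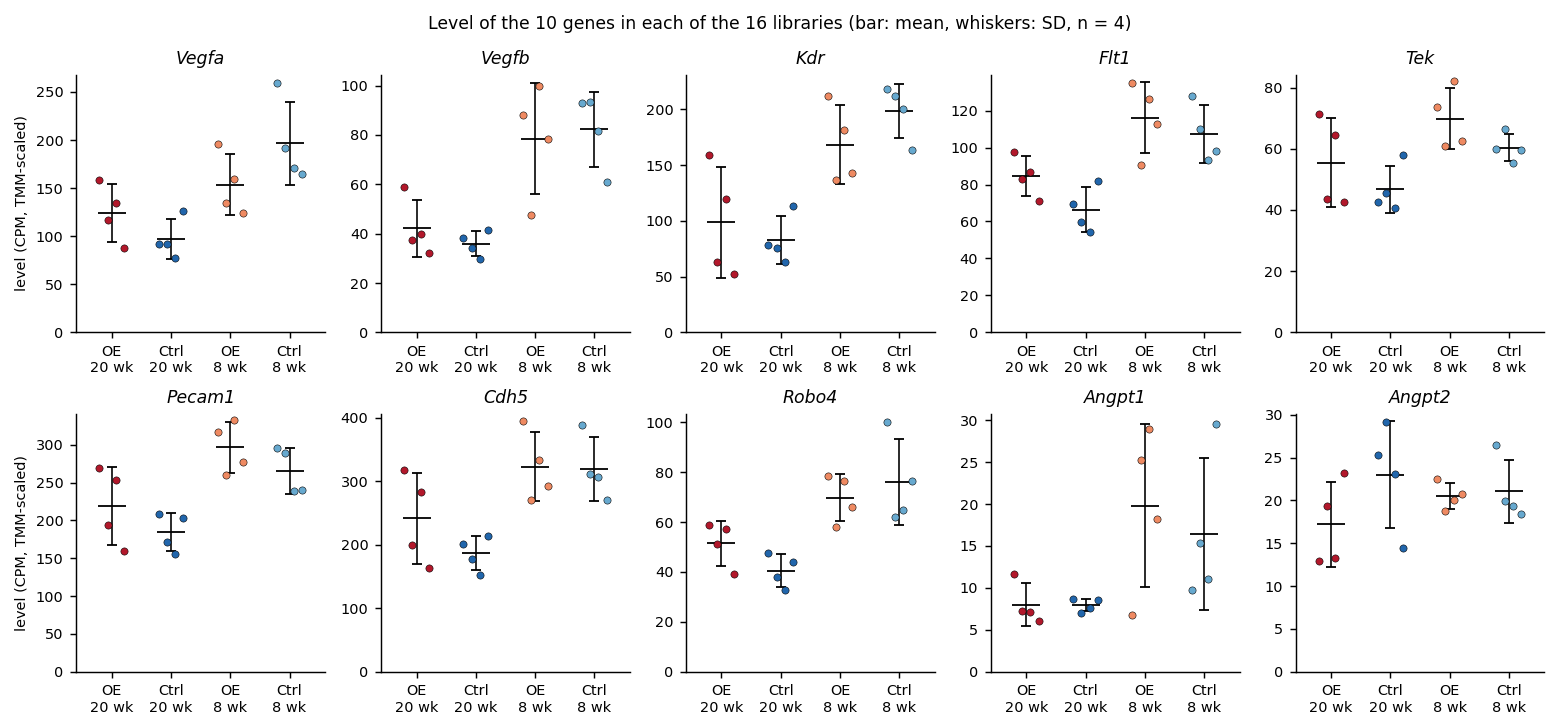
Level of each gene in CPM (vertical axes, after TMM scaling) in the 4 groups, with 1 point per library, the mean as a bar and the SD as whiskers (n = 4). The 20-week points of Vegfb, at 29.8 to 41.4 CPM in Ctrl, lie below all 8-week Ctrl points, at 61.1 to 93.5 CPM, while Angpt2 spans 14.4 to 29.2 CPM in 20-week Ctrl and 18.4 to 26.5 CPM in 8-week Ctrl.

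Within Ctrl, the older mice were set against the younger to ask how these genes stood after the longer diet at the greater age. Of the 10 genes, 7 were lower and 0 were higher at 20 weeks, where 21.3% of all genes tested were lower and 19.6% higher. Calls rest on edgeR's quasi-likelihood test with Benjamini-Hochberg adjustment over all genes tested, at 0.05. The median log2 fold change was −0.84 over the 10 genes and −0.05 over all genes tested. The genes that fell were Vegfa, Vegfb, Kdr, Flt1, Pecam1, Cdh5 and Robo4, all relative to the whole library; scaled instead to 28 other endothelial genes, Pecam1 had the opposite sign, as given below. In whole tissue, fewer cells of a type and less RNA per cell cannot be told apart.

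Among the ligands, Vegfa (gene ID 22339, chr17:46016993-46032377 on GRCm38.p6, which is mm10) had 91.8, 91.9, 77.2 and 126 CPM in 20-week Ctrl replicates 1 to 4, against 259, 192, 171 and 165 CPM in 8-week Ctrl. Each 20-week value lay below each 8-week value. Vegfa was 2.03-fold lower, with a log2 fold change of −1.02 ± 0.21 (SE) and an adjusted p of 0.00202. RefSeq lists 10 transcripts of this gene, and counts per gene do not tell its isoforms apart. Vegfb (ID 22340, chr19:6982472-6987651) had 38.3, 34.3, 29.8 and 41.4 CPM in 20-week Ctrl, against 93.1, 93.5, 81.5 and 61.1 CPM in 8-week Ctrl. These groups did not overlap either, and Vegfb was 2.29-fold lower (−1.19 ± 0.23, adjusted p = 0.00126). Mature adipocytes, a source of VEGF ligands, moved with them: 10 of 12 adipocyte markers were lower in Ctrl at 20 weeks and 0 were higher, and their summed level was 6970 to 13400 CPM at 20 weeks and 21300 to 26900 CPM at 8 weeks. Macrophage markers moved the other way, with 11 of 12 higher and a summed level of 6750 to 11000 CPM in 20-week Ctrl, against 1470 to 2510 CPM in 8-week Ctrl. The part of either cell type in the ligand results was not tested.

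Angpt1 (ID 11600, chr15:42424667-42676977) had 8.66, 7.04, 7.61 and 8.5 CPM in 20-week Ctrl, against 9.69, 15.4, 11 and 29.5 CPM in 8-week Ctrl. The 20-week values were tight and lay below all the widely spread 8-week values, and the difference was not called (−1.05 ± 0.41, adjusted p = 0.0513). Without Ctrl 8-week replicate 4, the highest library and one of those with epididymal transcripts, the log2 fold change was −0.60 (adjusted p = 0.208), and without the 8-week libraries numbered 1 it was −1.23 (adjusted p = 0.00722). Angpt2 (ID 11601, chr8:18690263-18741562) had 25.3, 29.2, 23.1 and 14.4 CPM in 20-week Ctrl, against 26.5, 19.9, 19.4 and 18.4 CPM in 8-week Ctrl. Its groups overlapped widely and it was not called (0.13 ± 0.22, adjusted p = 0.66). The annotated span of Angpt2 overlaps Mcph1, which averaged 16.4 CPM, and since the strand setting of the counting is not given in the sources used here, reads of this pair may not be told apart.

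Among the receptors, Kdr (ID 16542, chr5:75932827-75979072) had the largest log2 fold change of the 10 genes in Ctrl. It had 78.5, 76, 62.8 and 113 CPM in 20-week Ctrl, against 218, 212, 200 and 164 CPM in 8-week Ctrl. The groups did not overlap, and Kdr was 2.4-fold lower (−1.27 ± 0.30, adjusted p = 0.00474). Flt1 (ID 14254, chr5:147561604-147726438) had 69.2, 59.7, 54.5 and 82 CPM in 20-week Ctrl, against 128, 110, 93.2 and 98 CPM in 8-week Ctrl, again with no overlap. It was 1.62-fold lower (−0.69 ± 0.15, adjusted p = 0.00319), and the counts do not tell its soluble form, which binds VEGF-A without signalling, from the membrane receptor. Tek (ID 21687, chr4:94739086-94874976) had 40.8 to 58 CPM in 20-week Ctrl and 55.5 to 66.5 CPM in 8-week Ctrl, which overlapped, and was not called (−0.37 ± 0.17, adjusted p = 0.0912). Robo4 (ID 74144, chr9:37401902-37414023) had 47.5, 37.9, 32.8 and 43.8 CPM in 20-week Ctrl, against 100, 62.1, 65 and 76.6 CPM in 8-week Ctrl. Its groups did not overlap, and it was 1.88-fold lower (−0.91 ± 0.17, adjusted p = 0.00122).

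The promoters of the 4 receptor genes are shown because these genes varied together, as described below, and because the short core GGAA is the letters that ETS-family factors, among them the endothelial factor ERG, recognise. Promoter entries from RefSeq (GRCm38.p6) were found for 6 of the 10 genes. Each window of 300 bases runs from 250 bases before the start set by its promoter entry to 50 bases after it. It is written 5′ to 3′ on the strand of the gene. That start need not be the outer end of the gene span given above. Capitals mark GGAA or, for the other strand, TTCC. The windows are chr5:75978406-75978705 (minus strand) for Kdr, chr5:147725962-147726261 (minus strand) for Flt1, chr4:94739039-94739338 (plus strand) for Tek and chr9:37401722-37402021 (plus strand) for Robo4. Those of Kdr and Flt1 lie wholly inside the gene spans, and those of Tek and Robo4 reach only partly beyond them.
Kdr: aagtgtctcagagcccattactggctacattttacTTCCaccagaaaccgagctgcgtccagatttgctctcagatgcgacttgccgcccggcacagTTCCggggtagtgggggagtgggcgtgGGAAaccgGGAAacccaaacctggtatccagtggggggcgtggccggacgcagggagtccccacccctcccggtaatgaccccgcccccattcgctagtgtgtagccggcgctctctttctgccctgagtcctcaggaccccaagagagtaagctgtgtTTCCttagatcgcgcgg
Flt1: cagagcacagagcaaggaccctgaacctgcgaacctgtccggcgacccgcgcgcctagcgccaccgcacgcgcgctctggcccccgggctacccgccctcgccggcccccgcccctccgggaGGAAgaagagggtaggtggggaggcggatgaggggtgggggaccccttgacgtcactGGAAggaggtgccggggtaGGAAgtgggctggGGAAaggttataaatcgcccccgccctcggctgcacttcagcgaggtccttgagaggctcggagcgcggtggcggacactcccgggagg
Tek: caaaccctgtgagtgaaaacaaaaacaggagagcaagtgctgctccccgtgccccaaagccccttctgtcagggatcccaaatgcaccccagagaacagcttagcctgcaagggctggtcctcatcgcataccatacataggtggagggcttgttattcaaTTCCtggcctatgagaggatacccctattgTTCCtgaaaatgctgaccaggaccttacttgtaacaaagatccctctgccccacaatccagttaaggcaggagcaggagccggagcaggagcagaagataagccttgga
Robo4: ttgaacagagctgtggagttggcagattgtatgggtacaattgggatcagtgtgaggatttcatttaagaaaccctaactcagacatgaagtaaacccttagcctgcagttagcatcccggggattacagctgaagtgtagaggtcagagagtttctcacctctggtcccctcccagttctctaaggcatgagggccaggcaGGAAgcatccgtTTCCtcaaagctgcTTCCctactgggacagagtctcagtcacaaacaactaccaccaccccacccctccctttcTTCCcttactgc
Counted on both strands, the core occurred 5 times in the Kdr window, 4 times in that of Flt1, 2 times in that of Tek and 4 times in that of Robo4. Of 32851 promoter windows of the same length, 96.0% held it at least once, with a median of 3. At least as many copies were found in 28.6% of windows for Kdr, in 46.3% for Flt1 and for Robo4 and in 84.6% for Tek. The ligands Vegfa and Vegfb varied with these receptors too, and their windows are not shown. The core occurred 6 and 3 times in the windows of Vegfa and 2 times in that of Vegfb. At least 6 copies were found in 15.7% of windows. A match is a description of the letters and not a site. Flt1 was the only one of the 4 with the letters TATAAA or TTTATA, found 1 time, and 13.6% of all windows held them.

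Both junction genes were lower. Pecam1 (ID 18613, chr11:106654213-106715281) had 209, 171, 156 and 203 CPM in 20-week Ctrl, against 295, 289, 239 and 240 CPM in 8-week Ctrl. The groups did not overlap, and Pecam1 was 1.44-fold lower (−0.53 ± 0.16, adjusted p = 0.0181). The call was lost without Ctrl 20-week replicate 2 (adjusted p = 0.0529) or replicate 3 (0.0611). Cdh5 (ID 12562, chr8:104101613-104144504) had 201, 178, 153 and 214 CPM in 20-week Ctrl, against 389, 311, 307 and 270 CPM in 8-week Ctrl. It was 1.71-fold lower with no overlap (−0.78 ± 0.20, adjusted p = 0.00726). Apart from Pecam1 without either of those replicates, leaving out any 1 library kept each of the 7 calls in Ctrl.

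The comparison of 20 with 8 weeks was also made in OE. Of the 10 genes, 3 were lower and 0 were higher, where 9.91% of all genes tested were lower and 13.1% higher. The median log2 fold change was −0.44 over the 10 genes and −0.03 over all genes tested. The genes that fell were Vegfb, Flt1 and Angpt1, of which Flt1 had the opposite sign when scaled to the other endothelial genes, as given below. The count rested on single libraries. It was 7 without OE 20-week replicate 1, and 1, which was Vegfb, without any one of OE 8-week replicates 3 and 4 and OE 20-week replicates 2, 3 and 4. Beside these genes, 9 of 12 adipocyte markers were lower and 0 higher in OE at 20 weeks, with a summed level of 9280 to 18300 CPM, against 16900 to 33000 CPM at 8 weeks. Of 12 macrophage markers 10 were higher and 1 lower, with a summed level of 4470 to 11100 CPM at 20 weeks, against 1840 to 3490 CPM at 8 weeks. Their part in the result was not tested.

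Vegfb had 59, 37.5, 39.9 and 32 CPM in 20-week OE, against 88.2, 47.4, 99.8 and 78.4 CPM in 8-week OE. Only the 8-week library with epididymal transcripts, replicate 2, reached into the 20-week range. Vegfb was 1.86-fold lower (−0.90 ± 0.23, adjusted p = 0.0119), and it was the one gene of the 10 called between the ages in both genotypes under all 29 alternative settings. Angpt1 had 11.7, 7.24, 7.07 and 6 CPM in 20-week OE, against 6.81, 25.2, 29 and 18.2 CPM in 8-week OE. All but the first of the 8-week libraries lay above the 20-week libraries. Angpt1 was 2.47-fold lower (−1.31 ± 0.41, adjusted p = 0.0326), and −1.59 without the 8-week libraries numbered 1 (adjusted p = 0.00402). Its adjusted p was 0.0569 to 0.106 without any one of OE 8-week replicates 2, 3 and 4 and OE 20-week replicates 2, 3 and 4.

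Flt1 had 97.7, 83.1, 86.6 and 71 CPM in 20-week OE, against 135, 90.5, 126 and 113 CPM in 8-week OE. The ranges overlapped through 1 library on each side. Flt1 was 1.37-fold lower (−0.46 ± 0.15, adjusted p = 0.0448), a call at the edge of the threshold that held in 14 of 29 alternatives. Kdr had 159, 63.2, 120 and 52.8 CPM in 20-week OE, against 212, 137, 182 and 143 CPM in 8-week OE. The 20-week libraries were split, with replicates 1 and 3 high and replicates 2 and 4 low, and the difference was not called (−0.78 ± 0.30, adjusted p = 0.0722). Without OE 20-week replicate 1 it was −1.08 (adjusted p = 0.00825). Cdh5 had the same split, with 318, 200, 283 and 164 CPM in 20-week OE, against 394, 271, 333 and 292 CPM in 8-week OE, and was not called (−0.42 ± 0.20, adjusted p = 0.136). Vegfa had 158, 117, 135 and 87.3 CPM in 20-week OE, against 196, 135, 160 and 124 CPM in 8-week OE, with ranges that overlapped, and was not called (−0.31 ± 0.21, adjusted p = 0.304). Pecam1 (−0.44 ± 0.16, adjusted p = 0.0599), Robo4 (−0.44 ± 0.17, 0.0816), Tek (−0.33 ± 0.17, 0.169) and Angpt2 (−0.25 ± 0.22, 0.416) were not called either.

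**Figure D2:**
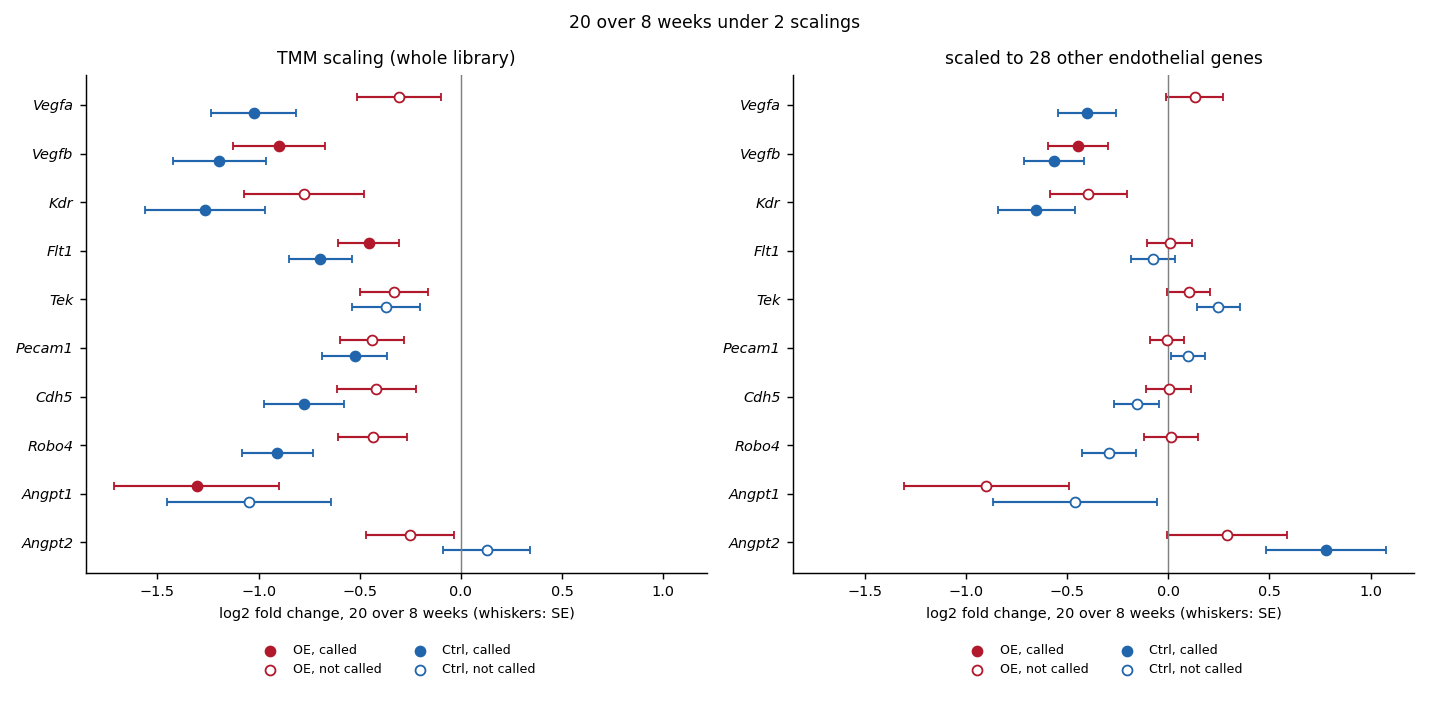
Log2 fold change of 20 over 8 weeks (horizontal axes) for each gene in OE (red) and Ctrl (blue), with SE whiskers from the fit. Filled points passed an adjusted p of 0.05. The left panel is scaled to the whole library by TMM, where Kdr lies at −1.27 in Ctrl and Pecam1 at −0.53. The right panel is scaled to 28 other endothelial genes, where Kdr lies at −0.65 and Pecam1 at 0.10.

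Other genes of blood endothelium were also lower at 20 weeks. The panel of 28 such genes held none of the 10. In OE, 9 of the 28 were lower at 20 weeks and 0 were higher, with a median log2 fold change of −0.42. In Ctrl, 22 were lower and 1 was higher, with a median of −0.71. Over all genes tested, 9.91% were lower and 13.1% higher in OE, with a median of −0.03. In Ctrl 21.3% of all genes were lower and 19.6% higher, with a median of −0.05. The count of lower genes in OE was 15 without OE 20-week replicate 1 and 5 without the 8-week libraries numbered 1. Their summed level in OE was 1354 to 2178 CPM at 20 weeks and 2088 to 2671 CPM at 8 weeks, where only OE 20-week replicate 1 reached the 8-week range. In Ctrl it was 1304 to 1608 CPM at 20 weeks and 2050 to 2429 CPM at 8 weeks, with no overlap. Erg, an ETS factor of endothelial identity, fell in Ctrl (−0.90 ± 0.15, adjusted p = 5.09e-04), as did the water channel Aqp1 (−0.68 ± 0.12, 8.39e-04) and Ecscr, a cell-surface regulator of endothelial migration (−0.73 ± 0.14, 0.00124). In OE, Aqp1 (−0.61 ± 0.12, adjusted p = 0.00337) and Erg (−0.56 ± 0.15, 0.0158) were lower, and the call of Erg was lost without OE 20-week replicate 2 (0.055). The gene that rose in Ctrl was Lyl1 (0.81 ± 0.15, adjusted p = 8.97e-04), a transcription factor that blood cells also express.

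Scaling to the summed counts of that panel asked which of the 10 genes changed more or less than that sum. Its most abundant genes weigh most: Aqp1 made up 26.2% of the sum over the libraries and Eng 8.5%. The scaling moved the median of all genes tested to 0.44 in OE and 0.58 in Ctrl, so values on it are relative to the panel and not to the tissue. In Ctrl, 3 of the 10 genes were lower than the panel, where 7.65% of all genes were lower, and 1 was higher, where 52.7% of all genes were higher. The genes that were lower were Kdr (−0.65 ± 0.19, adjusted p = 0.00929), Vegfb (−0.57 ± 0.15, 0.00494) and Vegfa (−0.40 ± 0.14, 0.0237). Relative to the whole library, the median log2 fold change in Ctrl was −1.23 over 12 adipocyte markers and −0.71 over the panel. The part of adipocytes in the place of the VEGF ligands on this scale was not tested. The one that was higher was Angpt2 (0.78 ± 0.30, adjusted p = 0.0344). Pecam1, at 0.10 ± 0.08, Cdh5, at −0.15 ± 0.11, and Flt1, at −0.08 ± 0.11, were not called and lay near the panel. Robo4, at −0.29 ± 0.13 (adjusted p = 0.0712), and Tek, at 0.25 ± 0.11 (0.0531), lay on either side of it without passing the test. In OE, 1 gene, Vegfb (−0.44 ± 0.15, adjusted p = 0.0263), was lower than the panel, where 2.91% of all genes were lower, and 0 were higher, where 39.9% of all genes were higher.

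The relative fall of Kdr can be read in each library. Kdr amounted to 5.01, 5.48, 4.82 and 7.04% of the summed CPM of the panel in 20-week Ctrl, against 9.1, 8.73, 9.25 and 8.02% in 8-week Ctrl, with no overlap. In OE it amounted to 7.28, 4, 6.13 and 3.9% at 20 weeks and to 8.34, 6.56, 6.83 and 6.29% at 8 weeks, where OE 20-week replicate 1 lay within the 8-week range. In OE the difference was not called (−0.39 ± 0.19, adjusted p = 0.102), and without OE 20-week replicate 1 it was −0.58 (adjusted p = 0.013). By contrast, Pecam1 amounted to 11.7 to 13% and 12 to 13.3% of the panel in 20-week OE and Ctrl, and to 12.2 to 12.5% and 11.1 to 12.3% in 8-week OE and Ctrl, and all 4 groups overlapped. On this scale the calls of Kdr and Vegfb in Ctrl were kept without any 1 library. That of Vegfa in Ctrl was lost without Ctrl 8-week replicate 1 or Ctrl 20-week replicate 1 or 3 (adjusted p = 0.067 to 0.0944). That of Angpt2 was lost without any one of Ctrl 8-week replicates 2, 3 and 4 and Ctrl 20-week replicates 1, 2 and 3 (0.0587 to 0.111), and with the geometric mean of the panel as the scale (0.0551). That of Vegfb in OE was lost without any one of OE 8-week replicates 1, 3 and 4 and OE 20-week replicates 2, 3 and 4 (0.0604 to 0.0888).

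**Figure D3:**
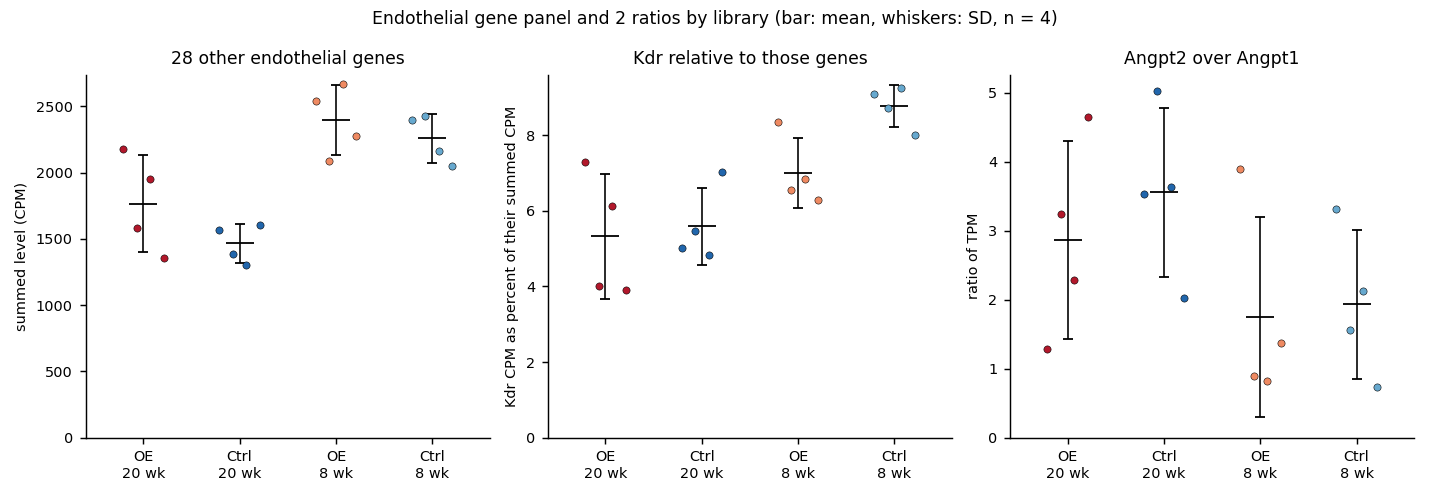
Summed CPM of 28 other endothelial genes (left), Kdr as a percent of that sum (middle) and the ratio of Angpt2 to Angpt1 in TPM (right), with 1 point per library, the mean as a bar and the SD as whiskers (n = 4). Kdr makes up 4.82 to 7.04% in 20-week Ctrl and 8.02 to 9.25% in 8-week Ctrl, while the ratio spans 2.03 to 5.03 in 20-week Ctrl and 0.736 to 3.31 in 8-week Ctrl.

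The balance of the angiopoietins, which compete for TEK, was wide within each group. The ratio of Angpt2 to Angpt1 in TPM was 1.29, 3.25, 2.28 and 4.65 in OE and 3.53, 5.03, 3.64 and 2.03 in Ctrl at 20 weeks. At 8 weeks it was 3.89, 0.901, 0.819 and 1.37 in OE and 3.31, 1.56, 2.13 and 0.736 in Ctrl. The 8-week libraries numbered 1, in which Angpt1 was lowest for their groups, had the highest ratios at that age. All 4 groups overlapped, and the ratio was not tested.

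The comparison of OE with Ctrl asked whether extra LTA4H in adipocytes went with other levels of these genes. At 20 weeks edgeR called 0 of the 10 genes, where 0.0261% of all genes tested were called. Of the 10, 1 had an unadjusted p under 0.05, as did 762 of all 19189 genes tested. DESeq2 and limma voom also called 0. The gene with the small unadjusted p was Flt1, which had 97.7, 83.1, 86.6 and 71 CPM in OE and 69.2, 59.7, 54.5 and 82 CPM in Ctrl. Its groups overlapped, since OE replicate 4 lay below Ctrl replicate 4 (0.35 ± 0.15, unadjusted p = 0.0382, adjusted p = 0.996). Estimates for the other genes, with 95% intervals, were 0.37 (−0.05 to 0.80) for Cdh5, 0.36 (−0.10 to 0.82) for Vegfa, 0.35 (−0.03 to 0.72) for Robo4 and −0.42 (−0.89 to 0.06) for Angpt2. The median over the 10 genes was 0.25, against 0.02 over all genes tested and 0.33 over the 28 other endothelial genes, of which 0 were called. Scaled to those genes, Cdh5 was at 0.09, Vegfa at 0.09 and Angpt2 at −0.60, none of them called. Without OE 20-week replicate 1, the estimate was 0.22 for Cdh5, 0.23 for Vegfa and −0.07 for Kdr, which had been at 0.25 with it.

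At 8 weeks edgeR called 0 of the 10 genes, where 0.0208% of all genes tested were called, and 0 had an unadjusted p under 0.05. DESeq2 and limma voom also called 0. The estimate farthest from 0 was that of Vegfa, which had 196, 135, 160 and 124 CPM in OE and 259, 192, 171 and 165 CPM in Ctrl. These groups overlapped through OE replicate 1 (−0.36, 95% interval −0.81 to 0.10, adjusted p = 1). Angpt1 had the widest interval, from −0.60 to 1.14 around 0.27, and its estimate was 0.71 without Ctrl 8-week replicate 4 (adjusted p = 0.794). Averaged over both ages edgeR, DESeq2 and limma voom called 0 of the 10 genes, where edgeR called 0.0365% of all genes tested and 0 of the 10 had an unadjusted p under 0.05, and the log2 fold changes ran from −0.23 for Angpt2 to 0.23 for Flt1.

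**Figure D4:**
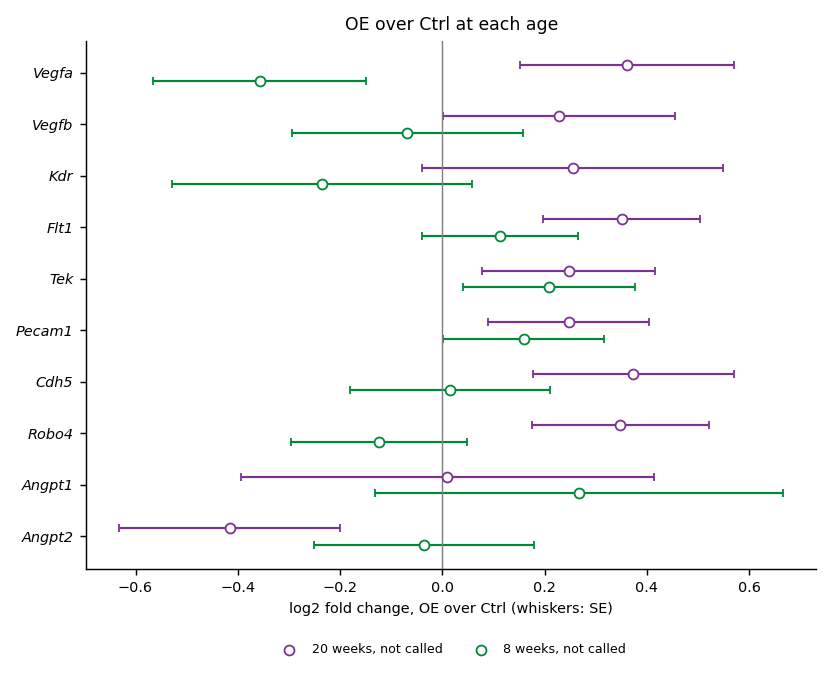
Log2 fold change of OE over Ctrl (horizontal axis) for each gene at 20 weeks (purple) and at 8 weeks (green), with SE whiskers from the fit. No point passed an adjusted p of 0.05; the 20-week points run from −0.42 for Angpt2 to 0.37 for Cdh5 and the 8-week points from −0.36 for Vegfa to 0.27 for Angpt1.

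The difference between the genotypes in the change with age was tested as an interaction. EdgeR called 0 of the 10 genes and 0% of all genes tested, although 1 of the 10 and 650 of all genes tested had an unadjusted p under 0.05. DESeq2 called 0 of the 10 genes, and 20 higher and 10 lower over all genes, and limma voom called 0 in both. The gene with the small unadjusted p was Vegfa, at −0.31 in OE and −1.02 in Ctrl, a difference of 0.72 ± 0.30 (unadjusted p = 0.0289, adjusted p = 0.982), which was 0.59 without OE 20-week replicate 1. Over 28 alternative settings it lay between 0.49 and 0.87, with adjusted p-values of 0.298 to 1. The difference was 0.49 ± 0.42 for Kdr, 0.47 ± 0.24 for Robo4 and 0.36 ± 0.28 for Cdh5, none of them called. Without OE 20-week replicate 1 it was 0.17 for Kdr, 0.41 for Robo4 and 0.21 for Cdh5. The 3 calls in OE and the 7 in Ctrl are thus not shown to differ between the genotypes.

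Within groups, 8 of the 10 genes varied together from mouse to mouse. After each group's mean was removed, the log2 CPM of Cdh5 and Kdr correlated over the 16 libraries with a Pearson's r of 0.942 and a Spearman's rho of 0.938. Without the 2 libraries farthest from the median of Kdr, OE 20-week replicates 1 and 4, r was 0.90. Cdh5 and Pecam1 had an r of 0.93, and Kdr and Tek one of 0.922. The ligand Vegfa had an r of 0.918 with Cdh5 and a rho of 0.882, and an r of 0.926 without Ctrl 20-week replicate 4 and Ctrl 8-week replicate 1. All 28 pairs among Vegfa, Vegfb, Kdr, Flt1, Tek, Pecam1, Cdh5 and Robo4 had an r between 0.534, for Tek and Robo4, and 0.942. These values are descriptions: the libraries share the makeup of each fat pad, and its part in them was not tested.

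The angiopoietins stood outside that block. Angpt1 had an r between −0.22 and 0.21 with the other 8 genes. Angpt2 had an r of −0.688 with Tek (rho −0.606) and −0.628 with Kdr (rho −0.521). Without Ctrl 20-week replicate 4 and OE 20-week replicate 4 these were −0.523 and −0.432. The r of Angpt2 with Tek was −0.874 over the 8 libraries at 20 weeks and 0.141 over the 8 libraries at 8 weeks. With Kdr it was −0.848 at 20 weeks and 0.594 at 8 weeks, and the difference between the ages was not tested. At 20 weeks Angpt2 was lowest in OE replicate 1, at 12.9 CPM, OE replicate 3, at 13.3 CPM, and Ctrl replicate 4, at 14.4 CPM, which were the libraries with the highest Kdr, at 159, 120 and 113 CPM. The summed macrophage marker level was lowest in the same 3 libraries, at 4470 CPM in OE replicate 1, 7610 CPM in OE replicate 3 and 6750 CPM in Ctrl replicate 4, against 9360 to 11100 CPM in the other 20-week libraries. The same 3 libraries had the highest adipocyte marker sums at 20 weeks. These were 18300 CPM in OE replicate 1, 13500 CPM in OE replicate 3 and 13400 CPM in Ctrl replicate 4, against 6970 to 12100 CPM elsewhere at that age. Their summed CPM of the 28 other endothelial genes was also the highest, at 2178, 1952 and 1608, against 1304 to 1581. The part of any cell type in the relation was not tested.

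**Figure D5:**
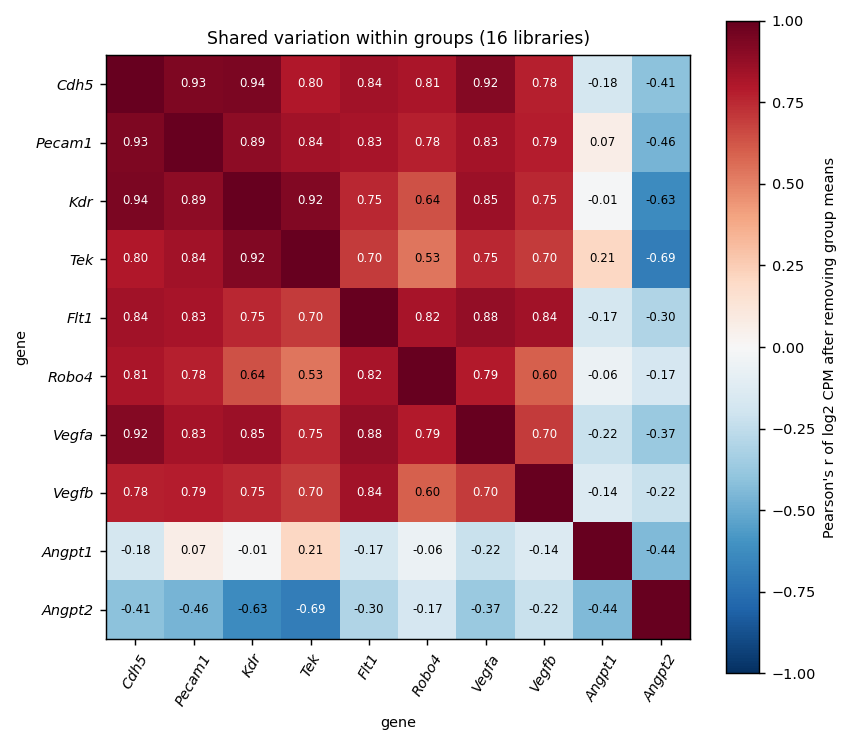
Pearson's r between each pair of the 10 genes over 16 libraries, from log2 CPM after each group's mean was removed (colour scale from −1 to 1, both axes list genes). The upper left block of 8 genes is positive throughout, up to 0.94 for Cdh5 and Kdr, while Angpt2 reaches −0.69 with Tek.

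The genes most like Cdh5 in this within-group measure, out of 12444 genes compared, were Arhgef15 (r = 0.966), Hspa12b (0.959), Cldn5 (0.955), Uaca (0.948) and Rnf144a (0.944). Cldn5 encodes the endothelial tight junction protein claudin 5. Those most like Vegfa were Ctcflos (0.962), Kcnk3 (0.947), Meox2 (0.94), Nkiras1 (0.938) and Hspa12b (0.926). Those most like Angpt1 were Ggnbp2os (0.918), Zyg11a (0.91), Ccnj (0.905), Clca3a1 (0.903) and Mmp17 (0.90), and those most like Angpt2 were Med17 (0.914), Trim47 (0.905), Snx27 (0.904), Rab8a (0.891) and Wnk1 (0.887).

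Other genes of the VEGF family changed in both directions between the ages. In OE, 1 of 6 further ligands and receptors was lower and 1 was higher at 20 weeks, and in Ctrl 4 were lower and 1 higher. Over all genes tested, 9.91% were lower and 13.1% higher in OE, and 21.3% were lower and 19.6% higher in Ctrl, and the counts of this and the following lists stand beside those shares. Without OE 20-week replicate 1 or the 8-week libraries numbered 1, 2 of the 6 were lower in OE, and without the libraries numbered 1 there were 2 higher in Ctrl. The gene that rose in both was Nrp2, a co-receptor for VEGF-C and semaphorins that macrophages also express, at 0.93 ± 0.14 in OE (adjusted p = 6.30e-04) and 1.10 ± 0.14 in Ctrl (7.59e-05). Flt4, the VEGF-C receptor of lymphatic endothelium, fell in OE (−1.06 ± 0.30, adjusted p = 0.0208) and in Ctrl (−1.77 ± 0.31, 6.19e-04). The call in OE was lost without any one of OE 8-week replicates 3 and 4 and OE 20-week replicates 2, 3 and 4 (0.0506 to 0.0722). The ligands Vegfd (−0.53 ± 0.16, adjusted p = 0.0163) and Vegfc (−0.47 ± 0.17, 0.0378) fell in Ctrl relative to the whole library and had the opposite sign, at 0.09 and 0.16, when scaled to the endothelial panel. The Vegfd call was lost without Ctrl 8-week replicate 2 (0.0582), and the Vegfc call without any one of Ctrl 8-week replicates 2 and 3 and Ctrl 20-week replicates 2, 3 and 4 (0.057 to 0.123).

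Of 7 lymphatic endothelial markers, which include Flt4, 2 were lower at 20 weeks in OE, with a median log2 fold change of −1.45, and 6 were lower in Ctrl, with a median of −3.37. Without the 8-week libraries numbered 1, which stood apart on these markers, 5 were lower in OE (median −1.83) and 6 in Ctrl (−3.77). Without OE 20-week replicate 1, 5 were lower in OE (−2.42). Prox1, the factor that specifies lymphatic identity, differed by −1.82 ± 0.83 in OE (adjusted p = 0.125, not called) and by −3.75 ± 0.91 in Ctrl (0.00547). The summed level over the 7 markers was 87.5 to 187 CPM in 20-week OE, 56.8 to 101 CPM in 20-week Ctrl, 119 to 310 CPM in 8-week OE and 144 to 348 CPM in 8-week Ctrl, where both lowest values are those of replicate 1. Kdr, Pecam1, Cdh5 and Tek are also expressed by lymphatic endothelium, and its part in their change was not tested.

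Most called markers of cells around the vessel were lower at 20 weeks. Of 12 pericyte and smooth muscle markers, 5 were lower and 1 higher in OE, with a median log2 fold change of −0.74. In Ctrl 9 were lower and 2 higher, with a median of −1.11. Without OE 8-week replicate 2 and Ctrl 8-week replicate 4 the medians were −0.60 in OE and −0.89 in Ctrl. Rgs5, a pericyte marker, fell in OE (−0.87 ± 0.20, adjusted p = 0.00736) and in Ctrl (−1.28 ± 0.20, 3.72e-04). Their summed level was 640 to 1060 CPM in 20-week OE, 563 to 749 CPM in 20-week Ctrl, 1160 to 4170 CPM in 8-week OE and 1060 to 4180 CPM in 8-week Ctrl, with the 8-week maxima in the libraries that held epididymal transcripts. Red cell genes, a sign of blood left in the pad, were lower in 5 of 5 cases in both genotypes, and summed to 688 to 3040 CPM in 20-week OE, 779 to 1320 CPM in 20-week Ctrl, 2190 to 7040 CPM in 8-week OE and 4420 to 9230 CPM in 8-week Ctrl. Platelet markers, a possible source of Pecam1 and Angpt1 transcripts, were low, with sums of 3.37 to 10.5 CPM over 6 genes in any library. The part of platelets, or of the macrophages whose markers rose, in the levels of Pecam1 and Angpt1 was not tested.

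In the angiopoietin pathway, 3 of 7 further genes were higher and 3 lower at 20 weeks in OE, and 3 were higher and 4 lower in Ctrl. Ptprb, the phosphatase VE-PTP that turns TEK off, fell in OE (−0.75 ± 0.18, adjusted p = 0.00939) and in Ctrl (−1.22 ± 0.18, 2.52e-04). Foxo1, the factor that angiopoietin 1 signalling restrains, was called lower in both genotypes and fell by 0.85 ± 0.19 in OE (0.00564). The 3 that rose were Svep1, Tnip2 and Dok2 in both genotypes. The matrix protein gene Svep1 was at 0.90 ± 0.12 in OE (4.54e-04) and 1.01 ± 0.12 in Ctrl (6.74e-05). Tnip2, an inhibitor of NF-kappa B, was at 0.89 ± 0.17 in OE (0.0025) and 1.09 ± 0.17 in Ctrl (3.34e-04). Dok2, an adaptor of TEK that leukocytes also express, was at 1.38 ± 0.29 in Ctrl (0.00233).

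Of 13 genes of sprouting tip cells, 4 were lower and 2 higher at 20 weeks in OE, and 9 were lower and 3 higher in Ctrl. Without OE 8-week replicate 2 and Ctrl 8-week replicate 4, the libraries with epididymal transcripts, 6 were lower and 1 higher in OE, and 8 were lower and 1 higher in Ctrl. Esm1, an endothelial proteoglycan gene induced by VEGF-A, fell in OE (−1.81 ± 0.37, adjusted p = 0.00334) and in Ctrl (−2.96 ± 0.38, 1.03e-04). Its mean level was 3.64 CPM over all libraries. Dll4, the Notch ligand of tip cells, fell by 1.52 ± 0.28 in Ctrl (8.48e-04). The calls of Esm1 and, in Ctrl, of Dll4 were kept in every alternative run, those scaled to the endothelial panel included. Igfbp3 (−1.07 ± 0.17, 4.12e-04) and the Notch target Hey1 (−1.09 ± 0.25, 0.00369) were also lower in Ctrl. In OE, Igfbp3 was lower (−0.72 ± 0.17, 0.00858), Apln, the ligand of the apelin receptor, was lower (−0.99 ± 0.31, 0.0359), and Pdgfb, which recruits pericytes, was higher (0.57 ± 0.17, 0.0251). The Apln call was lost without any one of OE 8-week replicates 1 and 4 and OE 20-week replicates 2, 3 and 4 (0.0558 to 0.114). The Pdgfb call was lost without any one of OE 8-week replicates 2 and 3 and OE 20-week replicates 3 and 4 (0.0608 to 0.0738).

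Among 6 partners of Robo4, which are Slit ligands, other Robo receptors and Unc5b, 1 was higher and 1 lower at 20 weeks in OE, and 2 were higher and 1 lower in Ctrl. Robo1 rose by 0.81 ± 0.19 in OE (adjusted p = 0.00857) and by 1.03 ± 0.19 in Ctrl (0.00101), and Slit1, a low-level ligand at a mean of 2.21 CPM, by 2.13 ± 0.55 in Ctrl (0.00813). Unc5b, the receptor that ROBO4 binds, fell in Ctrl (−0.65 ± 0.21, 0.0229), a call lost without Ctrl 20-week replicate 1 (0.0628) or without both 8-week libraries numbered 1 (0.0507). Slit3 fell in OE (−0.58 ± 0.12, 0.0041).

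Genes induced by low oxygen, which switches on Vegfa in many cells, were called in both directions. In OE 3 of 22 were higher and 4 lower at 20 weeks, with a median log2 fold change of −0.06, and in Ctrl 4 were higher and 6 lower, with a median of 0.01. In Ctrl these shares are near those over all genes tested, as is the share of higher genes in OE. Without the 8-week libraries numbered 1, 6 were higher in OE and 7 in Ctrl, and without OE 20-week replicate 1, 5 were higher in OE. Stc2, a secreted glycoprotein gene, fell in OE (−1.73 ± 0.25, adjusted p = 5.90e-04) and in Ctrl (−2.49 ± 0.26, 3.62e-05). In Ctrl, Anln, a cytokinesis gene (0.82 ± 0.12, 1.81e-04), the carbonic anhydrase gene Car9 (3.29 ± 0.54, 4.34e-04) and the pyruvate dehydrogenase kinase gene Pdk1 (0.67 ± 0.13, 0.00114) rose. Car9 was a low-level gene, at a mean of 2.35 CPM over all libraries. In OE, Anln (0.53 ± 0.12, 0.00579) and the glycolysis regulator Pfkfb4 (0.98 ± 0.22, 0.00585) rose, and the mitophagy gene Bnip3 fell (−0.88 ± 0.20, 0.00651).

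Among 10 brakes of angiogenesis, 1 was higher and 3 were lower at 20 weeks in each genotype, and without the 8-week libraries numbered 1 or the pair with epididymal transcripts 2 were higher in each. The 3 of 10 that were lower in Ctrl stand beside 21.3% over all genes tested. Thbs2, a thrombospondin that binds endothelial CD36, rose by 1.45 ± 0.26 in OE (adjusted p = 0.0017) and by 1.91 ± 0.26 in Ctrl (1.40e-04). Timp3, a metalloprotease inhibitor that blocks VEGF-A binding to KDR, fell in OE (−0.77 ± 0.11, 5.51e-04) and in Ctrl (−0.79 ± 0.11, 1.38e-04). Relative to the whole library, the semaphorin Sema3f fell in OE (−0.30 ± 0.08, 0.0182) and in Ctrl (−0.62 ± 0.08, 1.13e-04), and in OE it had the opposite sign, at 0.16, when scaled to the endothelial panel. The OE call was lost without OE 8-week replicate 4 (0.0662) or OE 20-week replicate 4 (0.0608). Adamts1 fell in Ctrl (−0.92 ± 0.25, 0.00975) and Sema3a, at a mean of 2.74 CPM, in OE (−1.65 ± 0.43, 0.0132).

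Relative to the endothelial panel, several of these changes were no longer called. In Ctrl that held for Hey1, Unc5b, Adamts1, Timp3 and Sema3f, which lay between −0.44 and −0.01 on that scale. In OE it held for Foxo1, Igfbp3, Apln, Slit3 and Timp3, at −0.57 to −0.12. The calls of Nrp2, Svep1, Tnip2, Ptprb, Thbs2, Stc2 and Anln in both genotypes and of Flt4 in Ctrl were kept in every alternative run. With 2 surrogate variables in the fit, the OE calls of Foxo1 (adjusted p = 0.0532), Robo1 (0.0562), Erg (0.0578), Apln (0.0592), Sema3a (0.064) and Sema3f (0.0727) were lost, as were the Ctrl calls of Unc5b (0.0904), Vegfd (0.12) and Vegfc (0.407). The panel's geometric mean as the scale also ended the calls of Sema3a in OE (0.0588) and Igfbp3 in Ctrl (0.0763).

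Between OE and Ctrl, edgeR called 0 of the 89 different genes on these lists at either age, averaged over the ages or for the interaction. By edgeR 13 of them had an unadjusted p under 0.05 at 20 weeks, as did 762 of all 19189 genes tested. The counts were 4 and 424 at 8 weeks, 8 and 389 averaged over the ages, and 6 and 650 for the interaction. Each count is a larger share of the 89 listed genes than of all genes tested. That difference was not tested, and the lists were chosen with earlier results of these data known. With limma voom 27 of the listed genes were under it at 20 weeks, 6 at 8 weeks, 18 averaged and 16 for the interaction. With DESeq2 these were 14, 6, 8 and 7. Such counts over all genes were not taken for those other tools. DESeq2, over 88 of them, and limma voom each called 1 at 20 weeks, Sema3f, and 0 in the other 3 contrasts. Sema3f had a log2 fold change of 0.39 ± 0.08 in OE over Ctrl at 20 weeks, with an adjusted p of 0.486 by edgeR, 0.0157 by DESeq2 and 0.0385 by limma voom. At 8 weeks the gene with the smallest unadjusted p on these lists was Thbs1, a thrombospondin, at 0.92 ± 0.32 (unadjusted p = 0.0108, adjusted p = 1), and Esm1 was at 0.997 ± 0.37 at 20 weeks (unadjusted p = 0.0166, adjusted p = 0.996).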

How the data were processed

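RNA from 16 epididymal fat pads was sequenced from stranded mRNA libraries, per the labels' protocols. The submitters' processing notes name bcl2fastq 2.20.0, Trimmomatic, HISAT2 2.1.0, StringTie 2.1.3b and mm10. The strand setting and annotation release are not given in the sources used here. The authors deposited raw read counts per gene, FPKM per gene and TPM per gene in 1 table. Counts were tested, TPM were used for levels between genes and for ratios, and FPKM were not used.

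Of 45777 genes, 19189 passed edgeR's filterByExpr (minimum count 10). A robust quasi-likelihood fit (edgeR 4.0.16, R 4.3.3) of the 4 groups with TMM scaling and 12 residual degrees of freedom gave 6 contrasts, with Benjamini-Hochberg adjustment over all genes tested and a threshold of 0.05. Errors beside log2 fold changes are SE and intervals are 95%. Correlations used log2 CPM with a prior count of 2. limma 3.58.1 (voom), DESeq2 1.42.0 and sva 3.50.0 gave alternatives. Counts of the gene lists without the libraries that stood apart were added after seeing the data. Up to 4 called genes of each list, with the smallest adjusted p, are named per comparison. A gene named in 1 genotype only can thus also have been called in the other. The 10 genes and all lists were chosen with earlier results of these data known. The labels do not say that the samples of a group came from separate litters or cages, and p-values measure the spread between these samples. Library totals of 33626901 to 67576994 counts limit precision little except for genes of a few CPM.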

Additional observations from a re-analysis of the deposited data

How the results depend on the processing

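In OE, 3 of the 10 genes were called between 20 and 8 weeks. The count was 1 when scaled to the endothelial panel, to the panel's geometric mean (added after seeing the data), without the filter on low counts, with only the groups compared and with 2 surrogate variables. It was 6 with DESeq2, 8 with limma voom and 5 without OE 20-week replicate 1 and the 8-week libraries numbered 1. Leaving out 1 library at a time gave 1 to 7. In Ctrl, 7 were called, 4 when scaled to the panel and 3 with its geometric mean, and 6 to 8 with 1 library left out. Between OE and Ctrl and for the interaction, 0 were called under each alternative run, leave-outs included (0 to 0).

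Among genes called on either scale, signs turned on the panel scale, and with its geometric mean where a second value is given, for Flt1 in OE (0.00765), Pecam1 in Ctrl (0.0971 and 0.0804), Sema3f in OE (0.161 and 0.104), Vegfd in Ctrl (0.0864 and 0.0709) and Vegfc in Ctrl (0.16 and 0.141). These scalings tie the libraries to endothelial genes, and the split over all genes moved with them: 2509 higher and 1902 lower in OE became 7653 and 558 with the panel and 4568 and 479 with its geometric mean. In Ctrl, 3770 higher and 4083 lower became 10112 and 1468, and 9030 and 1417. Otherwise the cause of changed calls was not tested. Of 1720 alternative values for the 10 genes, 1651 kept their side of the threshold without reversing a called value. Of the rest, 34 lost a call with the sign kept, 32 gained a call and 3 reversed a called value. All of these changes fell in the comparisons between the ages. The pooled count also holds the comparisons of OE with Ctrl and the interaction, where no gene of the 10 was called under any setting. It therefore says little about how stable the calls between the ages were. Among the 1651 values, 96 changed the sign of a value that was not called. On the panel scale those included Vegfa (0.13), Tek (0.10) and Angpt2 (0.29) in OE and Tek in Ctrl (0.25).

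With the replicate number as a block, 2 of the 10 genes were called in OE, 7 in Ctrl and 0 between genotypes, and Angpt1 in OE had an adjusted p of 0.0797. Only 2 of 24 same-numbered pairs deviated together with a correlation over 0.1 (range −0.597 to 0.826), and 2 of 16 libraries correlated best with their own number, so the numbers were not taken to pair the samples.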
